A study of Homo sapiens with 4 samples.

Results

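The Krüppel-like factors described here are 10 transcription factor genes (KLF2, KLF3, KLF4, KLF5, KLF6, KLF7, KLF9, KLF10, KLF11 and KLF13), taken from the deposited count table by gene symbol out of the 58735 genes it lists. The members were picked for known roles in quiescence, stress or the serum response, with earlier results of these data known. All 10 passed the filter of a mean level of at least 1 CPM (reads scaled to library size) over the 4 libraries, as did 14585 genes in all. The libraries come from MDA-MB-231, a long-established cell line from a human triple-negative breast tumour, transduced with TetOn-H2BeGFP, a doxycycline-inducible fusion of histone H2B and eGFP that is diluted as cells divide. All cells had 3 days of doxycycline at 5 μg/ml, were labelled with the dyes Claret and Violet, and were then left to dilute the labels over a chase of 12 days. The top 1% of cells by retained Claret, by retained eGFP and by retained Violet were sorted as 3 populations of slow-cycling cells, here called Claret, eGFP and Violet. Bulk cells went through the sorter without a fluorescence gate. Every group thus carries the reporter, the drug and both dyes, all come from 1 cell line, and each is 1 library.

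KLF proteins bind GC-rich and CACCC-type DNA elements through zinc fingers at their carboxyl end, and the family shares this domain with the SP factors. The amino-terminal part differs between members and decides the partner: one branch recruits histone acetyltransferases and mostly activates, one recruits the repressor CtBP, and one recruits the repressor SIN3A. In epithelia, several members are known as switches between proliferation and arrest, and in breast cancer both growth-restraining and growth-promoting roles have been described for the family.

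Groups follow the sample titles, which are also the column names of the deposited tables. The treatment field of the labels names another sort than the title for each of the 4 samples: it calls the library titled Bulk Claret, the one titled Claret eGFP, the one titled eGFP Violet, and the one titled Violet Bulk. Under that field every comparison with Bulk given below would instead set other libraries against each other, and the closing section gives those values. Library totals ran from 15508179 to 16976909 reads, and a count of 0 allows a level of up to 0.177 to 0.193 CPM (3 reads). Markers of the line (VIM, CD44, KRT8 and KRT18) summed to 1749 to 2058 CPM in each library, while ESR1 and CDH1 had at most 7 reads and PGR none. The epithelial marker EPCAM had 47, 48, 61 and 28 reads in Bulk, Claret, eGFP and Violet, and ERBB2, which a triple-negative line does not amplify, was read 1415 to 1542 times. Of the immune markers, CD3E was at 0 in all libraries, PTPRC had at most 2 reads and CD14 had 5 to 11. The endothelial list of 3 (PECAM1, CDH5 and VWF) summed to at most 7.18 CPM. The proliferation markers MKI67 and TOP2A summed to 1333 CPM in Bulk, against 259, 200 and 270 in Claret, eGFP and Violet, so cycling markers moved with every difference from Bulk reported here, and their part in the KLF results was not tested. Under the treatment field, the library with 1333 CPM of these markers would be the Claret sort of slow-cycling cells. In such bulk RNA, fewer cells of a type and less RNA per cell cannot be told apart.

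KLF4, KLF7, KLF9 and KLF11 rose past 2-fold in each of the 3 slow-cycling libraries relative to Bulk, and no member fell past 2-fold in any. KLF9 rose most, by 4.21 to 4.79 times. KLF13 was higher by 1.60 to 1.83 times, and KLF3, KLF6 and KLF10 were higher by less. KLF2 and KLF5 were lower in all 3. A call here means a log2 ratio of at least 1 in size between scaled libraries, with no replicate check behind it, and each 95% interval covers counting error only. The 3 comparisons share the Bulk library, so their likeness to each other is not independent evidence.

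The count of 4 of 10 members higher stands beside 11.3% of all genes kept for Claret, 12% for eGFP and 11.7% for Violet. The count of 0 of 10 lower stands beside 6.72%, 7.64% and 6.92%. Over the 3 libraries together, 8.67% of genes kept were past 2-fold higher (1264 genes) and 4.93% lower (719 genes). Among the 453 genes kept that the deposited annotation assigns to the C2H2 zinc finger class, which holds the KLF genes, 3.75% (17 genes) were past 2-fold higher in all 3 and 3.53% (16 genes) lower. Claret, eGFP and Violet had median log2 ratios of 0.51, 0.52 and 0.60 over the 10 members, against -0.01, -0.01 and 0.01 for all genes kept. The members were chosen for their roles, with earlier results of these data known, and no test of the list was made. These shares therefore describe the members and do not set them apart from other gene families.

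**Figure D1:**
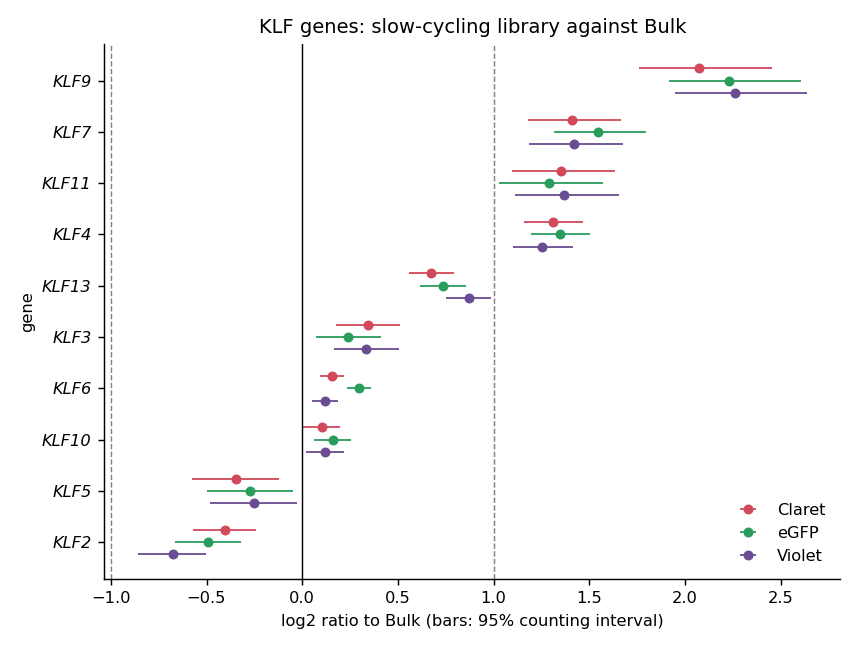
Log2 ratio of each KLF gene in the Claret, eGFP and Violet libraries to Bulk (points, 1 library each), with 95% counting intervals as bars, the solid line at no difference and dashed lines at 2-fold. KLF9, KLF7, KLF11 and KLF4 lie past the upper line in all 3 libraries, from 1.25 for KLF4 in Violet to 2.26 for KLF9 in Violet, while KLF2 and KLF5 lie below 0.

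Within the SIN3A-recruiting branch, KLF9 and KLF11 rose, KLF13 was higher without reaching 2-fold, and KLF10 was nearly level. KLF9, a mostly repressive factor induced by glucocorticoid and thyroid hormone, is at chr9:70384597-70414624 on the minus strand, with 2 exons in its longest transcript. Bulk held 86 KLF9 reads, Claret 397, eGFP 414 and Violet 419. The slow-cycling libraries were thus high and close to each other, and Bulk stood alone below them. On the log2 scale KLF9 was higher than Bulk by 2.07 in Claret (95% counting interval 1.76 to 2.45), 2.23 in eGFP (1.92 to 2.61) and 2.26 in Violet (1.95 to 2.64). Those ratios lay above 97.6%, 97.9% and 98.3% of all genes kept.

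KLF11, a repressor induced by TGF-β and also called TIEG2, is at chr2:10042849-10054836 on the plus strand, with 4 exons. Its reads numbered 158 in Bulk, against 438, 392 and 411 in Claret, eGFP and Violet. Again the 3 sorted libraries lay together above Bulk. The log2 ratios were 1.35 (1.10 to 1.63), 1.29 (1.03 to 1.57) and 1.37 (1.11 to 1.65). On the log2(FPKM + 1) scale KLF11 was not past 2-fold in eGFP (0.98). KLF11 has a gene annotated in antisense, AC104794.4, which holds 8.47% of its 31-base words, and this antisense gene had 0 reads in all libraries. Whether the counting used strand is not given in the sources used here.

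KLF13, which regulates CCL5 in T cells, is at chr15:31326855-31435665 on the plus strand. Bulk held 914 KLF13 reads, Claret 1573, eGFP 1535 and Violet 1670, so Bulk was lowest and Violet highest. Its log2 ratios of 0.67 (0.56 to 0.79), 0.73 (0.62 to 0.86) and 0.87 (0.75 to 0.99) came closest to the 2-fold line among members that did not pass it. KLF10, the TGF-β-inducible early gene TIEG1, was read 1642 times in Bulk and 1900, 1849 and 1782 times in Claret, eGFP and Violet. That is a difference of 0.10 (0.01 to 0.20), 0.16 (0.06 to 0.26) and 0.12 (0.02 to 0.22) on the log2 scale. KLF10 and KLF11, both known as TGF-β-inducible, therefore sat apart: KLF11 rose past 2-fold in all 3 libraries, and KLF10 was higher by 1.07 to 1.12 times, with intervals that do not meet those of KLF11.

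The promoters of KLF9 and KLF11, the members of this branch that rose, are shown because they differ in composition although both genes rose. Each window holds the 250 bases before a RefSeq start site in GRCh38.p14, 5′ to 3′ on the gene's strand. For KLF9 (chr9:70414658-70414907, minus strand) the capitals mark CCAAT boxes, and for KLF11 (chr2:10043971-10044220, plus strand) a cyclic AMP response element (CRE).
KLF9: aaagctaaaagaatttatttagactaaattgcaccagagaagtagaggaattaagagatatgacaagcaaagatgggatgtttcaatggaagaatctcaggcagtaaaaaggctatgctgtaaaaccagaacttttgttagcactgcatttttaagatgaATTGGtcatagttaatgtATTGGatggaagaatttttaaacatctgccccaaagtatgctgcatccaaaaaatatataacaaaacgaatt
KLF11: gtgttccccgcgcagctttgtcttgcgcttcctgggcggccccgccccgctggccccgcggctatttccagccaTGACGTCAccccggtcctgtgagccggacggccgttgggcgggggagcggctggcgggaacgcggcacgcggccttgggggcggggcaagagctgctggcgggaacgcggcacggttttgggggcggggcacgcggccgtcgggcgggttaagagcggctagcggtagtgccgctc
The KLF9 window is 32.4% G and C, and 2.92% of the 35116 windows in the table are poorer, where the median is 58%. It holds ATTGG, the CCAAT box read on the other strand, at -90 to -86 and at -72 to -68 from the start site, and no GC box (GGGCGG). The KLF11 window shown, 1 of 2 for this gene, is 74.4% G and C, with 6 GC boxes and the palindrome TGACGTCA at -176 to -169. The other KLF11 window is 78.8% G and C, with 2 GC boxes, an E box (CACGTG) and no CRE. CRE matches occur in 1.65% of all windows, CCAAT boxes in 32% and GC boxes in 42.6%. A match is a description of the letters and not of binding.

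In the activating branch, KLF4 and KLF7 rose, KLF6 was slightly higher, and KLF2 and KLF5 were lower. KLF4, a reprogramming factor that restrains the cell cycle in gut epithelium and activates CDKN1A, is at chr9:107484852-107490482 on the minus strand, with 5 exons. Bulk held 483 KLF4 reads, Claret 1293, eGFP 1241 and Violet 1153. The sorted libraries were all far above Bulk and close to each other. KLF4 rose over Bulk by 2.48 times in Claret (2.24 to 2.76), by 2.54 times in eGFP (2.29 to 2.84) and by 2.38 times in Violet (2.15 to 2.66).

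KLF7, a broadly expressed member known for its role in axon outgrowth, is at chr2:207074137-207167267 on the minus strand, with 4 exons. Its reads rose from 191 in Bulk to 551, 566 and 514 in Claret, eGFP and Violet. No sorted library came near the Bulk value. Its log2 ratios were 1.41 (1.18 to 1.67), 1.54 (1.32 to 1.80) and 1.42 (1.19 to 1.68). On the log2(FPKM + 1) scale it was not past 2-fold in Claret (0.95) and Violet (0.94). KLF6, an early-response gene of tissue injury with tumour-restraining and tumour-promoting splice forms that gene counts do not separate, is at chr10:3775996-3785281 on the minus strand. Bulk held 3603 KLF6 reads, Claret 4324, eGFP 4463 and Violet 3909. Its log2 ratios were 0.16 (0.09 to 0.22), 0.30 (0.23 to 0.36) and 0.12 (0.05 to 0.18).

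KLF2, which holds T cells in quiescence and is induced by shear stress in endothelium, is at chr19:16324817-16327874 on the plus strand. Bulk held 675 KLF2 reads, Claret 549, eGFP 484 and Violet 421. Bulk was highest and Violet lowest. The log2 ratios of KLF2 were -0.40 (-0.57 to -0.24), -0.49 (-0.66 to -0.32) and -0.68 (-0.86 to -0.50), and none reached 2-fold. KLF5, which promotes proliferation in epithelia and often opposes KLF4 there, is at chr13:73054976-73077542 on the plus strand. Its reads numbered 358 in Bulk, against 303, 299 and 300 in Claret, eGFP and Violet, with the sorted libraries nearly equal. Its log2 ratios were -0.35 (-0.57 to -0.12), -0.27 (-0.50 to -0.05) and -0.25 (-0.48 to -0.03). Thus KLF2 and KLF4, both known as factors of quiescence in other cells, lay on opposite sides of Bulk.

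The windows of KLF4, KLF7 and KLF2 are shown to set a pair of genes that rose beside one that was lower. Capitals mark GC boxes for KLF4 (chr9:107489770-107490019, minus strand), a CArG box for KLF7 (chr2:207167247-207167496, minus strand, the outermost of its 4 windows) and a MEF2 site for KLF2 (chr19:16324576-16324825, plus strand).
KLF4: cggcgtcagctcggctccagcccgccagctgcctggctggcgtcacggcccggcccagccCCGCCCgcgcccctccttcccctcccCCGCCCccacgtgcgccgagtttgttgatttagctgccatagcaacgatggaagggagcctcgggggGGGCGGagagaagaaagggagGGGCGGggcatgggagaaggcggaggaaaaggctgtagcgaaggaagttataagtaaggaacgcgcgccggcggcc
KLF7: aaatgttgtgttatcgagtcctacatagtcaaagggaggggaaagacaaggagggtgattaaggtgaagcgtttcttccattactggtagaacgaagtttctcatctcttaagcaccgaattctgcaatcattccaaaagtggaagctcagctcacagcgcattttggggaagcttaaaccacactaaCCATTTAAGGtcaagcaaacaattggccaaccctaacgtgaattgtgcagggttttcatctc
KLF2: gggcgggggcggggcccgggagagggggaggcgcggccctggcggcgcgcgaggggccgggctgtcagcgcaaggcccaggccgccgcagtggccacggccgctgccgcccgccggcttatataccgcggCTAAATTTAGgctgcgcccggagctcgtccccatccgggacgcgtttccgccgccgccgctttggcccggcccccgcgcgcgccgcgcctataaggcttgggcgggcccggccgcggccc
KLF4 holds 4 GC boxes, at -190 to -185, -164 to -159, -97 to -92 and -76 to -71. The KLF2 window, of the gene that was lower, also holds 4 GC boxes, which are not marked. The CArG box of KLF7, CCATTTAAGG, is the element that serum response factor reads, and it lies at -62 to -53; CArG boxes occur in 1.16% of all windows. The site in KLF2, CTAAATTTAG at -120 to -111, is the element known to carry MEF2 in this promoter, and MEF2 sites occur in 2.8% of windows. The KLF2 window is also the richest of the 3 shown in G and C, at 80%, against 69.2% for KLF4 and 43.2% for KLF7. The other KLF7 windows are 58%, 72% and 41.6% G and C, and the 72% window holds 4 GC boxes.

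The promoter set used here held 13 windows for 8 members, and lacked KLF3 and KLF10. Across these 13 windows an AP-1 site (TGANTCA, either strand) was found in 0, while 6.57% of all windows hold one. AP-1 is the factor named in the title of the study. The ATF4-C/EBP composite (TGATGNAA) was likewise found in 0 of 13, beside 3.14% of all. With only 13 windows from 8 genes, both counts of 0 lie near those shares and do not set the KLF windows apart. A GC box was in 8 of 13, a CCAAT box in 6, an E box (CACGTG) in 4 against 6.34% of all, and a CACCC box (CCACCC) in 2 against 31.3%. The only overlap between different motifs was a GC box and a CACCC box in KLF13. Absence says only that these letters are not in these windows.

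KLF3, the CtBP-recruiting member of the 10 and a repressor in erythroid and fat cells, is at chr4:38664196-38701042 on the plus strand, with 6 exons. Its reads numbered 517 in Bulk, against 707, 617 and 652 in Claret, eGFP and Violet. KLF3 had log2 ratios of 0.34 (0.18 to 0.51), 0.24 (0.07 to 0.41) and 0.33 (0.17 to 0.51), all below 2-fold. KLF3 shares 6.70% of its 31-base words with other genes, and KLF3-AS1 lies in antisense with 48 reads in all libraries together against 2493 for KLF3. The handling of reads that fit several places is not given in the sources used here.

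**Figure D2:**
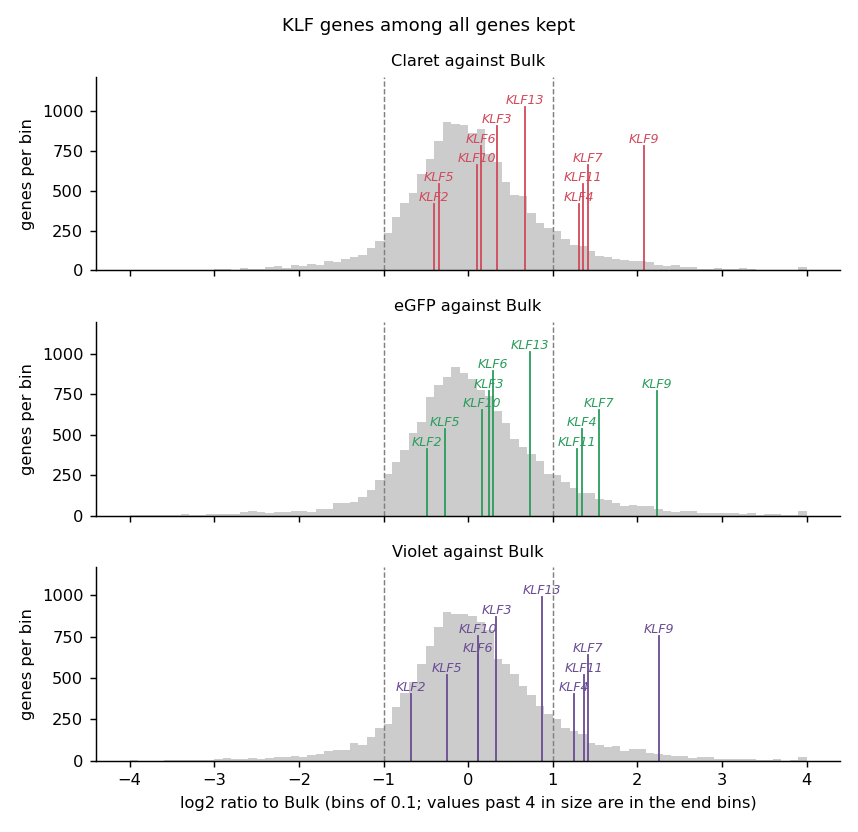
Histograms of the log2 ratio to Bulk over the 14585 genes kept (grey, genes per bin of 0.1), 1 panel for each slow-cycling library, with coloured lines at the 10 KLF genes and dashed lines at 2-fold; line heights are staggered for the labels only. KLF9 lies above 97.6% to 98.3% of genes and KLF2 above 14.1% to 25.7%.

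The members spread about as widely as all genes kept. Their log2 ratios to Bulk had an SD of 0.84, 0.87 and 0.90 in Claret, eGFP and Violet, beside 0.86, 0.90 and 0.86 for all genes kept. KLF7 lay above 93.9% to 94.6% of genes, KLF11 above 92.2% to 93.4% and KLF4 above 92.0% to 92.9%. KLF2 lay above 25.7%, 22.4% and 14.1% of genes in Claret, eGFP and Violet.

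The pairs of slow-cycling libraries do not use Bulk. No member passed 2-fold in any of the 3 pairs, beside 1.15% of all genes kept between Claret and eGFP, 1.06% between Claret and Violet, and 1.29% between eGFP and Violet. The largest difference was in KLF2, which was higher in Claret than in Violet by 0.27 on the log2 scale (0.09 to 0.46). KLF6 was highest in eGFP, by 0.18 over Violet (0.12 to 0.24), and its log2 ratio of Claret over eGFP was -0.14 (-0.20 to -0.08). KLF13 was highest in Violet, with log2 ratios of -0.20 (-0.30 to -0.10) for Claret over Violet and -0.14 (-0.24 to -0.03) for eGFP over Violet. The other 25 of 30 intervals, including all of those for KLF4, KLF7, KLF9 and KLF11, include 0. For KLF9 the interval of Claret over Violet ran from -0.39 to 0.01.

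**Figure D3:**
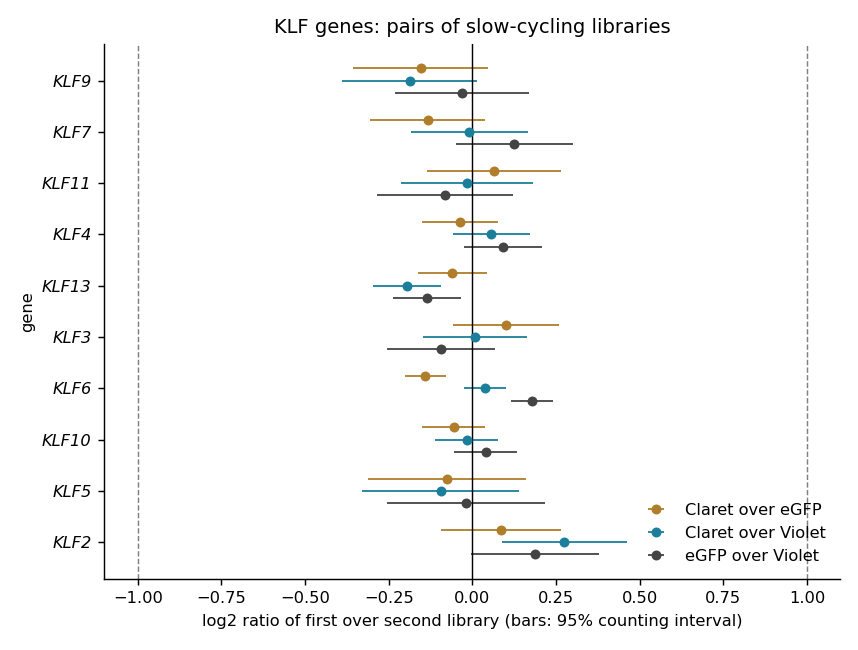
Log2 ratio of each KLF gene between pairs of slow-cycling libraries (points, first over second library, 1 library each), with 95% counting intervals as bars and dashed lines at 2-fold. All points lie between -0.20 and 0.27, and the intervals of KLF2, KLF6 and KLF13 are those that leave 0 in at least 1 pair.

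The members' ratios varied less among the sorts than those of other genes: their SD was 0.09 between Claret and eGFP, 0.13 between Claret and Violet, and 0.12 between eGFP and Violet, beside 0.29, 0.29 and 0.30 for all genes kept. The latter include genes with far fewer reads, and no test of this difference was made.

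Levels of different genes are compared here as FPKM (fragments per kilobase of gene, scaled to library depth), the authors' values, which divide by gene length. In Bulk the order was KLF6 at 37.8 FPKM, KLF10 at 26.4, KLF2 at 21.5, KLF4 at 8.49, KLF13 at 6.25, KLF5 at 5.92, KLF3 at 5.28, KLF11 at 2.22, KLF7 at 1.33 and KLF9 at 1.07. Counting intervals overlapped between KLF13 and KLF5, between KLF5 and KLF3, and between KLF7 and KLF9. These intervals do not cover the choice of length, on which the order between genes also depends. KLF13 has a gene length of 9409 bases and a longest transcript of 6825, while KLF2 has 2018 for both. In each sorted library KLF6 and KLF10 stayed first and second in FPKM, but KLF4 took the place above KLF2. KLF4 stood at 20.8 FPKM in Claret, 21.2 in eGFP and 19.6 in Violet, against 16.0, 15.0 and 13.0 for KLF2. The FPKM ratio of KLF4 to KLF2 was thus 0.395 in Bulk and between 1.299 and 1.51 in the sorted libraries. Similarly, the ratio of KLF4 to KLF5 was 1.44 in Bulk and 4.54, 4.42 and 4.09.

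**Figure D4:**
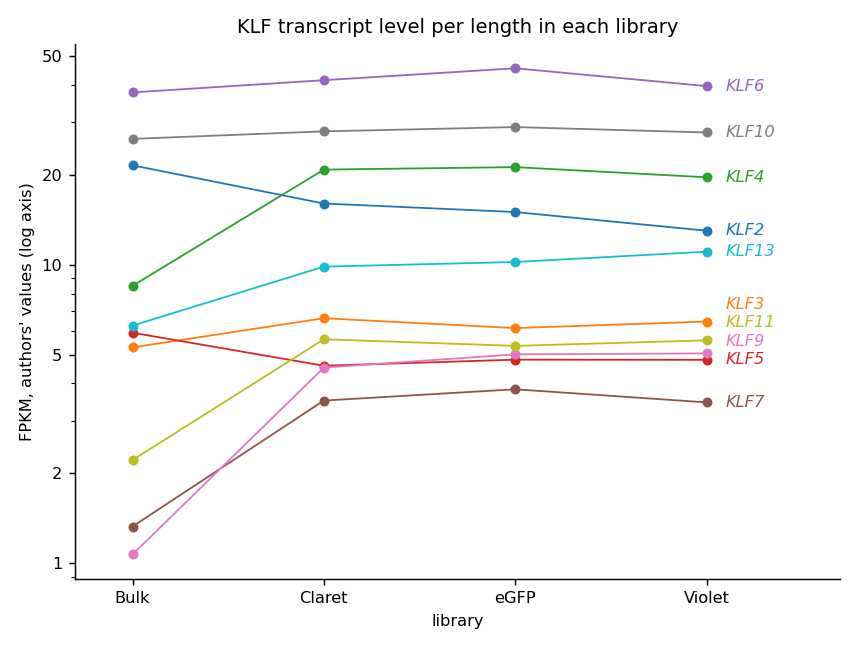
Authors' FPKM of each KLF gene (log axis) in the 4 libraries, 1 point per library, with lines joining the points of 1 gene. KLF4 crosses KLF2 between Bulk (8.49 against 21.5 FPKM) and the sorted libraries, and KLF9 climbs from 1.07 to between 4.52 and 5.04.

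At the low end, KLF9 was last in Bulk and reached 4.52 FPKM in Claret and 5.01 and 5.04 in eGFP and Violet. In these sorted libraries its counting interval overlapped that of KLF5, which stood at 4.59 to 4.81 FPKM. KLF7 came last in the sorted libraries, at 3.51, 3.82 and 3.46 FPKM. The neighbours KLF3 and KLF11 overlapped in all 3 sorted libraries, as did KLF11 and the gene next below it. The 10 members summed to 116 FPKM in Bulk, against 141, 146 and 136 in Claret, eGFP and Violet. Of that sum, KLF2 made up 18.5% in Bulk and 11.4%, 10.3% and 9.53% in the sorted libraries, while KLF4 went from 7.31% to 14.8%, 14.5% and 14.4%. KLF6 held 32.5% in Bulk and 29.4%, 31.2% and 29.1%.

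Of the 7 further KLF genes, 4 passed the filter, and KLF15, a metabolic regulator that glucocorticoids induce, rose in all 3 libraries. KLF15 had only 9 reads in Bulk, with 48, 49 and 39 in Claret, eGFP and Violet, for log2 ratios of 2.09 (1.26 to 3.52), 2.21 (1.39 to 3.64) and 1.90 (1.05 to 3.35). At 0.571 CPM in Bulk it passed the filter of 1 CPM only through the sorted libraries, so a gene at its level had to be higher there to be kept. KLF12, a CtBP-recruiting repressor like KLF3, was higher by 0.40, 0.66 and 0.54, and KLF16 by 0.20, 0.26 and 0.21. KLF1, the erythroid founder of the family, had 0 reads in all 4 libraries. Of 6 related SP factors kept, 0 were past 2-fold higher and SP5 fell in all 3, from 181 reads in Bulk to 87, 70 and 69 (log2 ratios -1.15, -1.36 and -1.37). Over all genes kept, 8.67% were past 2-fold higher in all 3 libraries and 4.93% lower. With lists as short as the further KLF genes and the SP factors, the counts lie near those shares. The broadly expressed SP1 had log2 ratios of -0.30, -0.31 and -0.15, and SP3 -0.65, -0.71 and -0.62. SP2, named after its values were seen, was lower in all 3 (-0.86, -1.07 and -0.94 in Claret, eGFP and Violet), past 2-fold in eGFP only. The median of the SP genes was -0.48, -0.51 and -0.38.

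Genes for the proteins that KLF factors recruit, or that turn them over, were read beside the share of all genes kept that passed 2-fold in all 3 libraries, 8.67% higher and 4.93% lower. Of 12 cofactors, 0 passed 2-fold in all 3, near that background, and their median log2 ratios in Claret, eGFP and Violet were -0.42, -0.57 and -0.43. HDAC1, the deacetylase of the SIN3A complex, had ratios of -0.45, -0.62 and -0.40, and EP300, an acetyltransferase that activating KLF proteins recruit, -0.67, -0.59 and -0.44. CREBBP and FHL3 were named after their values were seen. The acetyltransferase gene CREBBP was lower in all 3 (-1.07, -0.998 and -0.87 in Claret, eGFP and Violet), past 2-fold in Claret only. FHL3, a partner of KLF3, was higher in all 3, past 2-fold in eGFP and Violet (both 1.08) with 0.81 in Claret. Of 8 genes that act on KLF protein stability, 0 passed in any library; SMURF2, a ubiquitin ligase, had ratios of 0.58, 0.51 and 0.51, and BAP1, a deubiquitinase, -0.48, -0.50 and -0.48.

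Genes of 4 pathways known to induce KLF genes were counted against the same background of 8.67% higher and 4.93% lower, and with lists this short the counts lie near it. Of 11 genes of the MEK5-ERK5-MEF2 route, which induces KLF2 and KLF4, HDAC5 alone passed 2-fold, rising in all 3 libraries. HDAC5, a class IIa deacetylase that represses MEF2, was read 529 times in Bulk and 1679, 1794 and 1528 times in Claret, eGFP and Violet (1.55, 1.75 and 1.53 on the log2 scale). MEF2D was higher by 0.48, 0.58 and 0.58, and HDAC7 had -0.11, -0.08 and 0.15. Of 9 TGF-β genes 0 passed; the receptor gene TGFBR2 was higher by 0.67, 0.57 and 0.70, and SMAD3, its transducer, by 0.49, 0.72 and 0.53. Of 6 serum response genes 0 passed in all 3; SRF had -0.15, -0.36 and -0.29, and its partner ELK3 0.11, 0.12 and 0.08. MRTFB, a coactivator of SRF named after its values were seen, was past 2-fold lower in Claret and eGFP (-1.11 and -1.25), with -0.76 in Violet.

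Of 6 glucocorticoid response genes kept, TSC22D3, which encodes the anti-inflammatory protein GILZ, rose in all 3 libraries. Its reads numbered 225 in Bulk, against 776, 688 and 669 in Claret, eGFP and Violet (1.67, 1.59 and 1.56 on the log2 scale). The receptor gene NR3C1 had -0.21, -0.19 and -0.19, and the phosphatase gene DUSP1 was higher by 0.44, 0.75 and 0.45. FKBP5, another target of the receptor, named here after its values were seen, lay the other way at -0.86, -0.83 and -0.86.

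Genes reported as direct targets of one KLF or another went both ways. Of 12 kept of 16 listed, 3 rose and 2 fell in all 3 libraries, beside 8.67% and 4.93% of all genes kept. THBD, the thrombomodulin gene that KLF2 and KLF4 activate in endothelium, rose by 1.17, 1.34 and 1.08 on the log2 scale. NOS3, the endothelial nitric oxide synthase gene, rose from 23 reads in Bulk to 68, 66 and 75, and LGALS3, which encodes galectin-3, rose by 1.27, 1.33 and 1.21. The endothelial markers did not move as one. PECAM1, the best read of them, had 57 reads in Bulk, 54 in eGFP, 81 in Claret and 87 in Violet. Its log2 ratio to Bulk was thus -0.09 for eGFP, against 0.39 for Claret and 0.59 for Violet. VWF went from 4 reads in Bulk to 19, 21 and 24. At 0.254 CPM in Bulk, VWF passed the filter of 1 CPM only through the sorted libraries. CDH5 had at most 2 reads in any library. The part of these markers in the THBD and NOS3 values was not tested. CDKN1A and PDGFA were named after their values were seen. The cell cycle inhibitor gene CDKN1A was past 2-fold higher in Claret and eGFP (1.06 and 1.22, with 0.80 in Violet). The growth factor gene PDGFA was past 2-fold higher in Claret (1.06, with 0.99 and 0.97 in eGFP and Violet). The 2 that fell, CCNB1 (-2.08, -2.46 and -2.20) and BIRC5 (-2.67, -3.39 and -2.79), encode cyclin B1 and survivin, which peak in mitosis, and MKI67 and TOP2A fell with them. CCND1, the abundant cyclin D1 gene, had -0.49, -0.48 and -0.49.

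**Figure D5:**
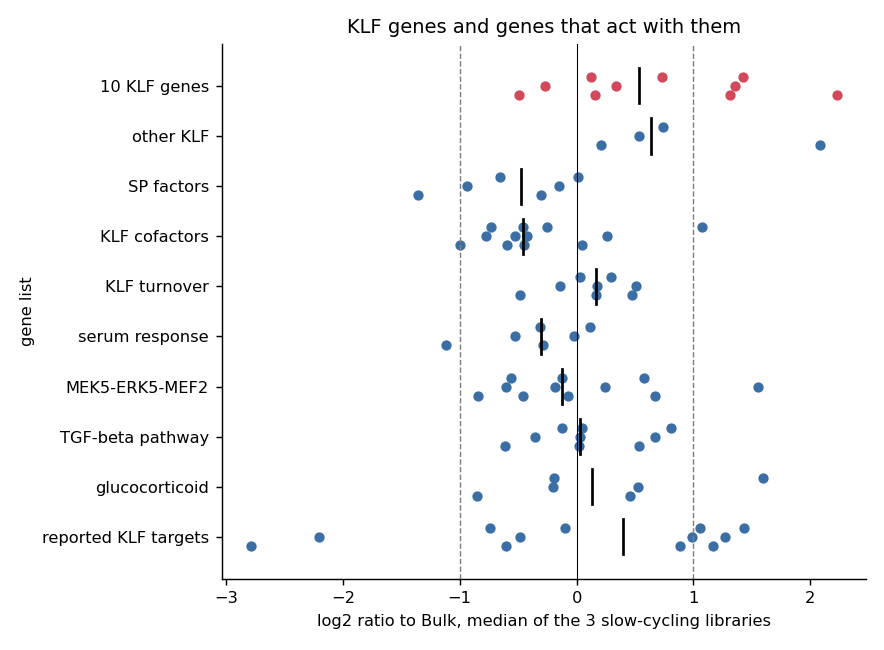
Log2 ratio to Bulk of each gene kept, as the median of the 3 slow-cycling libraries (points), for the 10 KLF genes (red) and 9 lists of related genes (blue), with a black bar at the median of each list and dashed lines at 2-fold. The KLF genes reach from -0.49 for KLF2 to 2.23 for KLF9, whereas SP factors reach 0.01 at most.

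The genes whose ratios lay nearest to those of a KLF gene were sought for KLF9 and KLF7, the members with the largest median ratio, among 9754 protein-coding genes with a mean of at least 10 CPM. The measure was the Euclidean distance over the 3 log2 ratios to Bulk, which share the Bulk library. Nearest to KLF9 were ZNF467 (distance 0.170), ERN1 (0.171) and ABCG1 (0.177). ERN1, the endoplasmic reticulum stress sensor IRE1α, was read 270 times in Bulk and 1306, 1251 and 1176 times in Claret, eGFP and Violet. Nearest to KLF7 were DOCK6 (0.0407), TCEA2 (0.0489) and TMEM150A (0.0588). All these distances are small beside the counting intervals in Claret of KLF9 (1.76 to 2.45) and KLF7 (1.18 to 1.67). Counting error could thus change which genes are nearest, and this was not tested.

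What the 4 members that rose share beyond the ratios is limited. KLF4 and KLF9 are on chromosome 9 and KLF7 and KLF11 on chromosome 2. In Bulk, KLF7, KLF9 and KLF11 were the 3 lowest members in FPKM, at 1.07 to 2.22, and KLF4 stood at 8.49. KLF6, KLF10 and KLF2, the 3 highest in Bulk, stayed within 2-fold. The Bulk level is the denominator of every ratio to Bulk, so it is not a trait separate from the ratios. The longest transcripts of the 10 members had a median of 46.9% G and C against 48.3% for genes kept, and KLF2, at 65.2%, was the richest.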

How the data were processed

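RNA was sequenced from 4 libraries of sorted MDA-MB-231 cells, prepared with a NEBNext Ultra kit from TRIzol RNA, per the labels' protocols. HISAT2 2.0.5 and featureCounts 1.5.0-p3 are named in the submitters' processing notes. The genome build, strand setting and treatment of multi-mapping reads are not given in the sources used here; the coordinates of all 58735 genes equal those of GENCODE 29. The authors deposited whole-number read counts per gene, which were used for all ratios, and FPKM values, which were used for levels between genes.

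Genes with a mean of at least 1 CPM over the 4 libraries were kept. Totals were scaled by TMM (edgeR 4.0.16 in R 4.3.3), and log2 ratios were taken from CPM with a prior count of 2. A call is a ratio of 2-fold or more. Intervals are 95% exact conditional binomial (Clopper-Pearson) intervals of the reads of both libraries; reads without molecular identifiers are not independent molecules, so intervals and floors cover counting error only. With 1 library per group no test between conditions was possible, although edgeR's quasi-likelihood test is the usual choice for counts. The scripts were tested on simulated data.

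Alternatives were no TMM factor, DESeq2 1.42.0 size factors, a prior count of 0.5, no filter, a filter at 10 CPM, log2(FPKM + 1), calls that also needed an exact binomial test, calls at 1.5-fold, a lowess correction for GC content (statsmodels 0.14.6) and groups from the treatment field. All 10 members were named; of the 9 related lists, genes past 2-fold one way in all 3 slow-cycling libraries were named, with up to 2 more by highest mean CPM. Some genes of the lists are not reported here. Members and lists were chosen with earlier results of these data known. Promoter windows are from RefSeq.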

Additional observations from a re-analysis of the deposited data

How the results depend on the processing

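No paired analysis was possible because each group holds 1 library and the labels give no replicate numbers; for the same reason no library could be left out. No KLF gene changed direction against Bulk under any alternative that kept the titles. On log2(FPKM + 1), whose pseudocount shrinks low levels, KLF7 was no longer past 2-fold in Claret (0.95) and Violet (0.94), nor KLF11 in eGFP (0.98). With calls at 1.5-fold, KLF13 passed in all 3 libraries and 1 member, KLF2, was lower in Violet. After GC correction KLF2 stood at -0.62, -0.72 and -0.88 in Claret, eGFP and Violet. With the filter at 10 CPM, KLF6 and KLF10 both stood at 0.20 in Violet.

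With groups from the treatment field, the library titled Bulk becomes Claret. The count of members higher was then 0 for Claret, eGFP and Violet against Bulk, and the count lower was 4 for Claret against Bulk, against eGFP and against Violet. Median log2 ratios were -0.60 for Claret, -0.013 for eGFP and 0.011 for Violet against Bulk, -0.51 for Claret against eGFP and -0.52 for Claret against Violet. Against Bulk, Claret had -1.25 for KLF4, -1.42 for KLF7, -2.26 for KLF9 and -1.37 for KLF11. In eGFP against Bulk, KLF7 had -0.0087, KLF9 -0.19 and KLF11 -0.017, and in Violet against Bulk, KLF9 had -0.031 and KLF11 -0.082. These follow from the exchange of libraries.

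Over the 14585 genes kept, the numbers past 2-fold higher and lower were 1650 and 980 in Claret, 1750 and 1115 in eGFP, and 1708 and 1010 in Violet. With no filter, over 31079 genes, they were 3521 and 2960, 4477 and 3239, and 4713 and 2771. At 10 CPM, over 10112 genes, they were 721 and 556, 781 and 643, and 724 and 597. On log2(FPKM + 1), over the same 14585 genes as at first, they were 589 and 619, 633 and 725, and 533 and 743. Depth limits the ratios of KLF9 and KLF15, which had 86 and 9 reads in Bulk.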
